A study of Homo sapiens with 9 samples.

Results

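The genes described here are the enzymes of nucleotide synthesis and their folate supply: 35 genes listed for the purine, pyrimidine, salvage and folate pathways, all 35 of which are among the 16612 genes of the count table. HNT34 is an established human acute myeloid leukemia (AML) cell line with high expression of EVI1, the oncogenic transcription factor encoded by MECOM at 3q26. Its cells carried 1 of 3 short hairpin RNAs (shRNAs) in a lentiviral vector with an EF1a promoter, a red fluorescent protein and puromycin resistance: a non-targeting control (NT), EVI1 sh#16 or EVI1 sh#87. RNA was taken 3 days after selection, and each group has 3 libraries of polyadenylated RNA made with a strand-specific kit. All groups share the parental line, the vector backbone and the selection, and no untransduced cells were among the groups. The sources used here do not say whether the libraries of a group came from separate cultures, so p-values measure the spread between these libraries, which may be technical.

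Dividing cells build nucleotides from ribose phosphate, amino acids and formyl groups carried by folate, or recover them from free bases and nucleosides (salvage). PRPP, an activated ribose, is the common precursor. The purine ring is assembled on PRPP up to IMP, which is then converted to AMP or GMP. The pyrimidine ring is made first and then joined to ribose to give UMP, from which CTP is made. Ribonucleotide reductase turns ribonucleotides into deoxynucleotides for DNA, and thymidylate synthase makes dTMP at the expense of a folate cofactor. Several of these enzymes are inhibited by drugs used in leukemia or activate them, and many of their genes are known targets of the transcription factor MYC.

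The libraries held 17096170 to 43502389 counts. MECOM was lower in every knockdown library: NT libraries had 571, 504 and 440 CPM (counts scaled to the TMM-normalised library size), sh#16 libraries 143 to 145 and sh#87 libraries 106 to 109. The mean log2 CPM differed by -2.01 between the 6 knockdown and 3 NT libraries (exact permutation test, 2-sided, p = 0.0119, the smallest that 84 arrangements allow). Of the 8 markers of myeloid blasts checked, 7 are in the table, MPO being the exception, and their summed level was 1717 to 1846 CPM in NT, 354 to 357 with sh#16 and 217 to 219 with sh#87. CD34 averaged 731, 116 and 42.4 CPM in the same order, and CD33 42.7, 38.0 and 35.1. LYZ was the exception, with the lowest mean in NT (0.604, 2.91 and 1.10 CPM). None of the 5 erythroid markers is in the table, and the B cell, T cell and epithelial markers that are (4 of 9) included KRT8, at 42.1, 17.7 and 16.4 CPM. Whether the markers have a part in the levels of the nucleotide genes was not tested. In bulk RNA, fewer cells of a type and less RNA per cell cannot be told apart.

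The NT libraries stood further apart than the knockdown libraries. The biological coefficient of variation was 25.0% in NT, 3.77% in sh#16 and 6.98% in sh#87. Mitochondrially encoded genes took 15.9%, 11.5% and 4.69% of the counts in NT libraries 1, 2 and 3, and 2.69% to 5.97% in the knockdown libraries. NT library 2 lay between the other two for most of the genes studied: 14 genes were lowest in library 1 and highest in library 3, and 14 were ordered the other way. The widest were APRT, CAD and PFAS, whose highest NT library exceeded the lowest by 4.58, 2.35 and 2.03 times. Whether the mitochondrial share has a part in these levels was not tested.

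With both shRNAs taken as 1 group, 15 of the 35 genes fell and 6 rose at an adjusted p of at most 0.01. That is 42.9% lower and 17.1% higher, against 29.7% lower and 30.1% higher among the 16312 genes tested. The median log2 fold change was -0.25 for the 35 genes and 0.05 for all genes tested. The genes that fell span the purine ring (GART, PAICS, ATIC), the branches to AMP and GMP (ADSS2, GMPS), the pyrimidines (DHODH, CTPS1, CTPS2), kinases and salvage (NME1, NME2, DCK, UCK2), thymidylate synthesis (TYMS) and folate (MTHFD1, MTHFD1L). The genes that rose were RRM2, SAMHD1, DCTPP1, TK1, GUK1 and SHMT1. At the fold change threshold of the study, a log2 value of 2 in either direction, 4 genes passed (11.4%, against 15.4% of all genes tested): SAMHD1 and TK1 rose, and CTPS2 and MTHFD1L fell. This fit takes the difference between the shRNAs as spread. With 3 groups fitted and the mean of the shRNAs set against NT, 18 genes were lower (ADSL, HPRT1 and PRPS2 in addition) and 7 higher (IMPDH2 in addition). In that fit 5587 of all 16312 genes tested were lower and 5657 higher, also more than in the fit of 2 groups (4848 and 4904).

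The 15 genes that fell and the 6 that rose were apart from NT in every library, as was HPRT1, which was not called. All 6 knockdown libraries lay below all 3 NT libraries for 16 genes and above them for 6, while the libraries overlapped for 13. Over all genes tested, 32.1% lay below and 33.9% above without overlap. The summed level of the 35 genes was 4289 to 4431 CPM in NT, 3650 to 3704 with sh#16 and 2964 to 3049 with sh#87.

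The genes of PRPP synthesis were lower with sh#87. PRPS2, an isoform of the enzyme that makes PRPP, had 65.5, 63.6 and 61.3 CPM in NT libraries and 60.3, 57.8 and 61.5 with sh#16, which overlapped. With sh#87 it had 31.6, 33.4 and 36.9 CPM, below every other library, and it fell by 0.90 on the log2 scale against NT (SE 0.07, edgeR adjusted p = 4.18e-06). PRPS1 averaged 48.3 CPM in NT, 49.2 with sh#16 and 36.5 with sh#87, where it fell by 0.40 (SE 0.08, adjusted p = 9.2e-04). Neither was called with sh#16, at log2 fold changes of -0.08 and 0.03.

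Of the 6 genes of the purine ring, 3 fell with both shRNAs. ATIC, which closes the ring to IMP with a formyl group from folate, had 153, 146 and 153 CPM in NT, 53.4, 49.7 and 49.0 with sh#16 and 31.4, 32.0 and 33.2 with sh#87. The 3 groups did not overlap. It fell by 1.86 with both shRNAs together (SE 0.18, adjusted p = 8.27e-06), and by 2.23 with sh#87 alone. GART, which carries out several early steps, had 291, 270 and 233 CPM in NT, 112, 110 and 108 with sh#16 and 81.2, 82.5 and 83.0 with sh#87. Its groups did not overlap either, and the log2 fold change was -1.46 (SE 0.13, adjusted p = 6.06e-06). PAICS, which joins a carboxyl group and aspartate to the growing ring, had the highest level per kilobase of transcript of the purine ring genes in NT, 116 CPM per kb. It had 829, 748 and 643 CPM in NT, which no knockdown library reached. With sh#16 it had 403, 386 and 390 CPM and with sh#87 284, 279 and 312, and it fell by 1.11 (SE 0.15, adjusted p = 6.73e-05).

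The other 3 genes of the ring were not called with both shRNAs together. PPAT, the enzyme of the first committed step, had 139, 130 and 127 CPM in NT and 132, 134 and 135 with sh#16, inside the NT range. With sh#87 it had 110, 111 and 112 CPM, and fell by 0.25 against NT (SE 0.05, adjusted p = 0.0021), a call lost without sh#87 library 2 (adjusted p = 0.0105). PFAS had 71.5, 101 and 145 CPM in NT, and all 6 knockdown libraries lay between 99.4 and 103 CPM, so that the NT spread contained every knockdown value. Its log2 fold change of -0.07 (SE 0.17, adjusted p = 0.73) turned to 0.21 without NT library 3. ADSL, which acts in the ring and again on the way to AMP, averaged 86.6 CPM in NT, 81.3 with sh#16 and 64.9 with sh#87, and fell with sh#87 (log2 fold change -0.42, SE 0.06, adjusted p = 2.5e-04).

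PPAT and PAICS, a gene that was not called and a gene that fell, are neighbours that start back to back. Their RefSeq start sites used here lie 137 bases apart on chromosome 4 (GRCh38.p14), PPAT on the minus strand at 56435615 and PAICS on the plus strand at 56435752. Their promoter windows, 250 bases before to 50 after each start, share 236 bases. Their annotated spans overlap, and since use of strand in counting is not stated, reads in the overlap may have gone to either gene. The windows of PAICS, ATIC and MTHFD1L are shown because these genes fell and carry CACGTG, an E-box that is the core site of MYC and MAX. Each is written 5′ to 3′ on the strand of its gene, with the motif in capitals. PAICS has 3 RefSeq windows and MTHFD1L 4, of which 1 each is shown, and distances are from the start site of the window shown.
PAICS, chr4:56435502-56435801, plus strand: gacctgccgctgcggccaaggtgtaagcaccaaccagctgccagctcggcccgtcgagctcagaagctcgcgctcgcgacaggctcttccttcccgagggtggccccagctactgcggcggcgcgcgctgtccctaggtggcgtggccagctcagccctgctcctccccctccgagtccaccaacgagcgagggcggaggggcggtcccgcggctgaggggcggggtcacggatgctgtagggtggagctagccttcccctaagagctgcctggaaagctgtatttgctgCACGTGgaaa
ATIC, chr2:215311809-215312108, plus strand: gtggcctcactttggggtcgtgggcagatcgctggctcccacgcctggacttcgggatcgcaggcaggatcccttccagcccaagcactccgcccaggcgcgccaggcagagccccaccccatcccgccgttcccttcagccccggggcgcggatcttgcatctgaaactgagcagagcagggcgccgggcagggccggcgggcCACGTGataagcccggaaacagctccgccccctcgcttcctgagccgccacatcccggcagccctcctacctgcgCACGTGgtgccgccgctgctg
MTHFD1L, chr6:150866236-150866535, plus strand: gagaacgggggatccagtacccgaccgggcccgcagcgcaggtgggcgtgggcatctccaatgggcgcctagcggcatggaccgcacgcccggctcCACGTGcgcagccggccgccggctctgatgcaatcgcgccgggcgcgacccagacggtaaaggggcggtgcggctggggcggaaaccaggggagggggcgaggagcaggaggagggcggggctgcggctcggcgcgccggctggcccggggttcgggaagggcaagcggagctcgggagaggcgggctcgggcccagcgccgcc
The E-box of PAICS begins 40 bases after its start site, and the same 6 bases lie 182 bases before the start of PPAT. ATIC has an E-box 46 bases before and another 29 bases after its start, and MTHFD1L has its own 154 bases before.

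RefSeq windows were found for 33 of the 35 genes, not for ADSL and IMPDH2, and a motif was counted where any window of a gene held it on either strand. CACGTG, which reads the same on both strands, was in the windows of 9 of the 33 genes (27.3%), against 8.77% of all genes with a window and 12.3% of those tested here. It was in 7 of the 15 genes that fell (DHODH, PAICS, ATIC, NME1, MTHFD1, MTHFD1L and DCK), 1 of the 6 that rose (DCTPP1) and 1 of the 12 not called (PPAT). CCAAT, the letters bound by NF-Y, was in 14 of 33 (42.4%), against 39.7% of all genes and 43.0% of those tested. TTTGGCGC, a form of the E2F site, was in 3 (GART, DUT and DCK), against 0.795% of all genes and 1.34% of those tested. The other E2F form searched, TTTCGCGC, was in the windows of none of the 33 genes (0.63% of all genes, 1.27% of those tested). The same held for the letters AAGATAA (4.04% and 2.37%) and GAAGATGAG (0.425% and 0.443%), GATA-like and ETS-like forms of EVI1 sites. These are matches of letters in windows of 300 bases and say nothing of binding.

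Past IMP, the genes of the AMP and GMP branches moved in different directions. ADSS2, the first enzyme toward AMP, had 128, 110 and 102 CPM in NT, 37.2, 34.6 and 35.2 with sh#16 and 23.4, 24.9 and 22.3 with sh#87. All 3 groups were apart, and it fell by 1.93 (SE 0.18, adjusted p = 5.55e-06). GMPS, which completes GMP, averaged 261 CPM ± 7.27 in NT, 145 ± 4.51 with sh#16 and 107 ± 1.87 with sh#87 (SD, n = 3), and fell by 1.05 (SE 0.13, edgeR adjusted p = 5.22e-05). The enzymes between IMP and GMPS were not called lower. IMPDH2, an isoform of IMP dehydrogenase, averaged 373 CPM in NT, 497 with sh#16 and 398 with sh#87, and rose with sh#16 alone (log2 fold change 0.41, SE 0.06, adjusted p = 3.6e-04). IMPDH1, the other isoform, averaged 26.4, 33.9 and 32.8 CPM and was not called in any comparison with NT, but rose with both shRNAs without NT library 3 (log2 fold change 0.51, adjusted p = 0.0088). Per kilobase of transcript, IMPDH2 was the higher of the pair in NT, at 226 CPM per kb against 10.1.

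In pyrimidine synthesis the last step to CTP had the largest changes. CTPS2, a CTP synthase, had 26.7, 25.7 and 23.9 CPM in NT, 7.26, 6.94 and 6.41 with sh#16 and 4.24, 4.25 and 5.19 with sh#87. It fell by 2.15 with both shRNAs (SE 0.18, adjusted p = 3.23e-06), 4.43-fold, with no overlap between any groups. CTPS1, the other CTP synthase, had 120, 103 and 101 CPM in NT, 52.8, 55.1 and 51.5 with sh#16 and 49.1, 45.7 and 49.6 with sh#87, and fell by 1.09 (SE 0.09, adjusted p = 2.36e-06). DHODH, which oxidises dihydroorotate at the inner mitochondrial membrane, averaged 24.3, 12.2 and 11.4 CPM in NT, sh#16 and sh#87. It fell by 1.04 (SE 0.11, adjusted p = 1.51e-05), and the log2 difference between the shRNAs was -0.10 (SE 0.12, adjusted p = 0.56).

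CAD and UMPS, at either end of UMP synthesis, were not called with both shRNAs together. CAD, which catalyses the opening steps, had 90.2, 131 and 212 CPM in NT, while the knockdown libraries lay between 128 and 135. Its log2 fold change of -0.13 (SE 0.20, adjusted p = 0.57) became 0.24 without NT library 3. UMPS, which completes UMP, averaged 47.8 CPM in NT, 50.1 with sh#16 and 36.4 with sh#87, and fell with sh#87 (log2 fold change -0.39, SE 0.09, adjusted p = 0.0037), a call lost without sh#87 library 1 (adjusted p = 0.016) or 3 (0.0184). CAD and APRT are given by library outside the rule for named genes, after their values were seen, as is PAICS.

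The nucleotide kinases moved both ways. GUK1, which phosphorylates GMP, averaged 22.6 CPM ± 5.75 in NT, 45.9 ± 3.23 with sh#16 and 52.7 ± 5.19 with sh#87 (SD, n = 3), and rose by 1.12 on the log2 scale (SE 0.16, edgeR adjusted p = 1.4e-04). NME1, a nucleoside diphosphate kinase, had 111, 100 and 80.3 CPM in NT, 59.9, 64.7 and 58.2 with sh#16 and 40.3, 36.8 and 35.1 with sh#87. Its 3 groups did not overlap, and it fell by 0.98 (SE 0.21, adjusted p = 0.0017). NME2, its neighbour and close paralog, averaged 258, 155 and 123 CPM and fell by 0.89 (SE 0.11, adjusted p = 5.81e-05). Reads shared between NME1 and NME2 could have been split between them in counting, so their separate levels are uncertain.

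Genes that make and remove deoxynucleotides included the largest rise. SAMHD1, which hydrolyses deoxynucleoside triphosphates and also the active form of cytarabine, had 5, 5 and 6 counts in the NT libraries, or 0.215, 0.217 and 0.2 CPM. It had 18.7, 18.2 and 16.9 CPM with sh#16 and 10.6, 11.8 and 13.3 with sh#87. The NT values stand just above the floor of 3 counts. SAMHD1 rose by 6.12 on the log2 scale, 69.5-fold (SE 0.31, adjusted p = 1.5e-07), and was lower with sh#87 than with sh#16. Per kilobase of transcript it reached 3.86 CPM per kb with sh#16 and 2.56 with sh#87, near the level of DHODH at 2.61 and 2.44.

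The subunits of ribonucleotide reductase did not move together. RRM2, the small subunit whose supply changes over the cell cycle, had 157, 144 and 120 CPM in NT, 363, 367 and 377 with sh#16 and 393, 385 and 378 with sh#87. Every knockdown library exceeded every NT library, and it rose by 1.43 (SE 0.10, adjusted p = 1.03e-06). RRM1, the large subunit, had 207, 179 and 176 CPM in NT and 203, 206 and 209 with sh#16, but 151, 131 and 133 with sh#87. It was not called with sh#16 and fell by 0.44 with sh#87 (SE 0.08, adjusted p = 9.7e-04). RRM2 was thus above NT with either shRNA, and RRM1 was within or near its NT range with sh#16 and below it with sh#87.

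Genes of thymidylate supply also differed in direction. TYMS, which makes dTMP from dUMP, had 216, 214 and 234 CPM in NT, 117, 123 and 125 with sh#16 and 75.9, 68.5 and 67.0 with sh#87. It fell by 1.20 (SE 0.22, adjusted p = 5.4e-04), with all groups apart. DUT, which provides dUMP by cleaving dUTP, had 85.6, 78.4 and 88.3 CPM in NT, 111, 116 and 129 with sh#16 and 81.5, 75.9 and 67.5 with sh#87. DUT rose with sh#16 (log2 fold change 0.49, SE 0.09, adjusted p = 9.6e-04) but its sh#87 libraries overlapped NT, at -0.17 (adjusted p = 0.12). DTYMK, the next kinase, averaged 12.5, 19.4 and 15.4 CPM and rose with sh#16 (0.62, SE 0.17, adjusted p = 0.0092), a call that leaving out any library except NT library 3 removed (highest adjusted p 0.034). With sh#87 its log2 fold change was 0.29 (adjusted p = 0.15). DCTPP1, a pyrophosphatase of dCTP, had 32.0 to 34.6 CPM in NT and 39.9 to 54.7 in the knockdown libraries and rose by 0.47 (SE 0.11, adjusted p = 0.0038), a call lost without NT library 1 (adjusted p = 0.015) or 2 (0.017).

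In salvage, TK1 and UCK2 moved in opposite directions. TK1, the cytosolic thymidine kinase of S phase, had 31.2, 33.6 and 46.3 CPM in NT, 171, 177 and 181 with sh#16 and 198, 190 and 188 with sh#87. It rose 4.97-fold (log2 fold change 2.31, SE 0.13, adjusted p = 3.1e-07), and no knockdown library came near the NT range. UCK2, which phosphorylates uridine and cytidine, had 85.1, 89.1 and 107 CPM in NT, 44.3, 48.4 and 48.5 with sh#16 and 29.1, 31.6 and 29.5 with sh#87. It fell by 1.28 (SE 0.19, adjusted p = 1.4e-04). DCK, which phosphorylates deoxycytidine and activates cytarabine, averaged 82.1 CPM ± 23.1 in NT, 47.3 ± 1.35 with sh#16 and 36.8 ± 0.741 with sh#87 (SD, n = 3), and fell by 0.97 (SE 0.17, edgeR adjusted p = 4.5e-04).

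The purine salvage enzymes were not called with both shRNAs together. HPRT1, which recovers hypoxanthine and guanine, averaged 67.5 CPM in NT, 57.2 with sh#16 and 39.4 with sh#87, and its NT and knockdown libraries did not overlap. It fell with each shRNA taken alone, by 0.24 with sh#16 (SE 0.06, adjusted p = 0.0072) and by 0.78 with sh#87 (SE 0.06, adjusted p = 3.98e-06). The call with sh#16 was lost without any 1 library except NT library 1 or 3 (highest adjusted p 0.0429). In the fit of both shRNAs as 1 group its adjusted p was 0.018. APRT, which recovers adenine, had 10.1, 16.8 and 46.5 CPM in NT libraries and 43.6 to 63.0 in the knockdown libraries. NT library 3, with the least mitochondrial RNA of the NT group, overlapped the sh#87 libraries, and the log2 fold change of 1.16 (SE 0.39, adjusted p = 0.0198) was not called. Without NT library 3 it was 2.01, with an adjusted p of 3e-05.

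Of the 3 folate genes, 2 fell and 1 rose. MTHFD1L, the mitochondrial enzyme that releases formate, had 52.8, 53.4 and 52.9 CPM in NT, 9.51, 9.99 and 8.98 with sh#16 and 7.61, 9.56 and 8.90 with sh#87. It fell 5.82-fold, the largest fall of the 35 genes (log2 fold change -2.54, SE 0.10, adjusted p = 3.1e-08), and the shRNAs overlapped each other. MTHFD1, the cytosolic enzyme that turns formate into formyl-folate for the purine ring, had 196, 196 and 199 CPM in NT, 138, 141 and 141 with sh#16 and 114, 109 and 110 with sh#87. It fell by 0.65 (SE 0.11, adjusted p = 3.4e-04). SHMT1, the cytosolic enzyme that loads folate from serine, had 17.3, 18.7 and 27.7 CPM in NT, 30.3, 33.4 and 33.4 with sh#16 and 32.8, 32.1 and 32.7 with sh#87. It rose by 0.61 (SE 0.14, adjusted p = 0.0029), but was no longer called without NT library 1 (adjusted p = 0.014) or 2 (0.02). With sh#16 alone the call was lost in 8 of 9 fits with 1 library left out (highest adjusted p 0.0318). With sh#87 alone it was lost in 7 of 9 (highest adjusted p 0.0275).

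**Figure D1:**
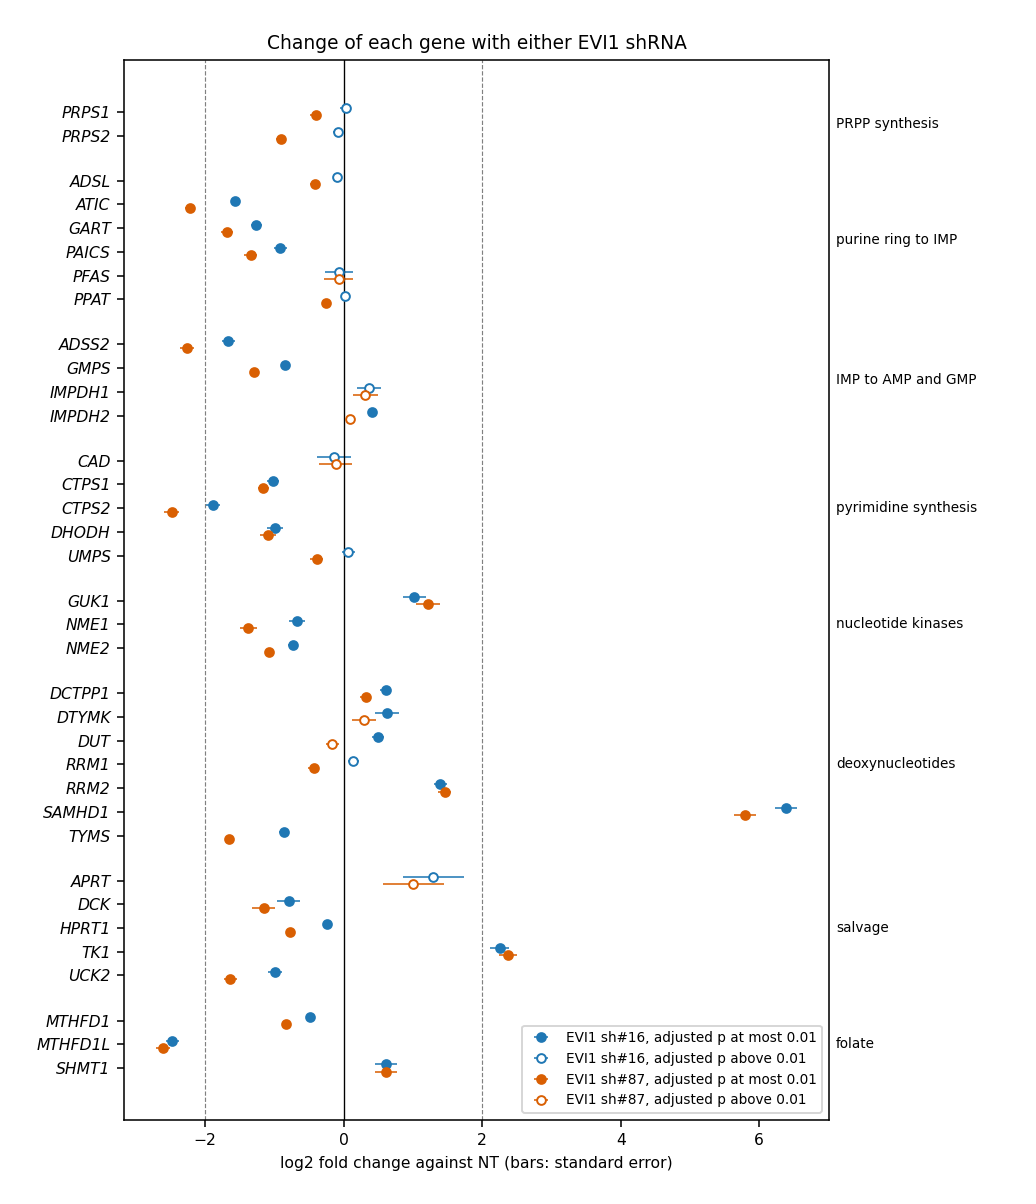
Log2 fold change of each gene against NT with its standard error, for EVI1 sh#16 (blue) and EVI1 sh#87 (orange), grouped by pathway step; filled points passed an adjusted p of 0.01 and dashed lines mark a log2 fold change of 2 in either direction. SAMHD1 at 6.39 and 5.79 stands far from the rest, and most orange points lie to the left of the blue ones.

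Several steps have a pair of enzymes for the same or a matching reaction, and the ratio of their counts within a library does not depend on normalisation. The pairs were tested at an adjusted p of at most 0.05, since the smallest p these libraries allow is above 0.01. Of 9 such pairs, 6 had a changed ratio in the knockdown libraries, each with separate ranges in the 6 knockdown and 3 NT libraries (exact permutation test, 2-sided, p = 0.0119 each, adjusted p = 0.0179 over 9 pairs). How many other gene pairs would have separate ranges was not computed. Among single genes tested, 32.1% lay below NT and 33.9% above it without overlap. Separate ranges were thus common among single genes, and 6 of 9 pairs is not read as particular to these enzymes. The log2 ratio of CTPS1 to CTPS2 rose by 1.09, from a mean of 2.08 ± 0.0846 in NT to 2.95 ± 0.0789 with sh#16 and 3.40 ± 0.139 with sh#87 (SD, n = 3). CTPS1 thus took 80.0% to 81.8% of the counts of the pair in NT and 90.5% to 92.0% with sh#87. The log2 ratio of mitochondrial MTHFD1L to cytosolic MTHFD1 fell by 1.89, from 21.0% to 21.4% of the counts of the pair in NT to 5.99% to 6.63% with sh#16 and 6.24% to 8.09% with sh#87.

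The ratio of a mitochondrial to a cytosolic enzyme also fell for SHMT2 to SHMT1 and for TK2 to TK1. SHMT2, the mitochondrial serine hydroxymethyltransferase, had 220, 302 and 357 CPM in NT, 167 to 170 with sh#16 and 116 to 125 with sh#87, and the log2 ratio fell by 1.65. TK2, the mitochondrial thymidine kinase, had 16.1, 16.8 and 18.4 CPM in NT, 11.5 to 11.8 with sh#16 and 14.6 to 16.5 with sh#87. Its log2 ratio to TK1 fell by 2.69, while TK2 itself was not called (log2 fold change -0.34, SE 0.14, edgeR adjusted p = 0.046). RRM2B, the small subunit induced by p53, had 107, 101 and 101 CPM in NT and 58.1 to 68.7 in the knockdown libraries, against the rise of RRM2, and this log2 ratio fell by 2.14. UCK1 had 10.6, 14.5 and 18.2 CPM in NT and 16.4 to 22.3 in the knockdown libraries, which overlapped. Its log2 ratio to UCK2 rose by 1.78, while UCK1 itself was not called (log2 fold change 0.44, SE 0.16, edgeR adjusted p = 0.032).

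The ratio overlapped between the groups in the other 3 pairs. The log2 ratio of PRPS1 to PRPS2 differed by 0.31 (exact permutation test, p = 0.0952), that of IMPDH1 to IMPDH2 by 0.12 (p = 0.512) and that of NME1 to NME2 by -0.11 (p = 0.429), with adjusted p-values of 0.122, 0.512 and 0.482. The PRPS1 to PRPS2 ratio was 0 to 0.19 in the sh#87 libraries, above every NT and sh#16 library.

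The single comparisons share the NT libraries, so their values are given side by side. With sh#16, 16 genes fell and 9 rose, against 30.2% lower and 29.8% higher among all genes tested, and the median log2 fold change of the 35 was -0.09. With sh#87, 22 genes fell and 6 rose, against 33.6% lower and 34.3% higher among all genes, and the median was -0.44. Past a log2 fold change of 2 there were 3 genes with sh#16 (SAMHD1, TK1 and MTHFD1L), against 12.8% of all genes, and 6 with sh#87 (these and CTPS2, ADSS2 and ATIC), against 18.9%. Past a log2 fold change of 1 there were 10 with sh#16 and 18 with sh#87, against 34% and 43.8%, and 15 with both shRNAs as 1 group, against 38.2%. The genes called lower with sh#87 and not with sh#16 were PRPS1, PRPS2, PPAT, ADSL, UMPS and RRM1. Those called higher with sh#16 and not with sh#87 were DUT, DTYMK and IMPDH2. CAD, PFAS, IMPDH1 and APRT were called with neither.

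Compared directly, the shRNAs differed in 1 direction. Of the 35 genes, 21 were lower with sh#87 than with sh#16 and none was higher at an adjusted p of at most 0.01 (edgeR), against 9.42% lower and 8.29% higher among all genes tested. DESeq2 called 22 lower and 0 higher, against 2087 lower and 1930 higher of 16303 genes tested. With limma-voom 21 were lower and 0 higher, against 1454 lower and 1507 higher of 16312. At an unadjusted p under 0.05 (edgeR) 22 were lower and 0 higher. The share of all genes at that threshold was not computed. The main fit pools the spread of the wider NT group. With only the sh#16 and sh#87 libraries fitted, 25 were lower and 0 higher, against 3853 lower and 3681 higher of 15685 genes tested. With limma-voom weights per group, 24 were lower and 0 higher, against 3790 lower and 3600 higher of 16312 genes. Every sh#87 library lay below every sh#16 library for 26 genes (34.3% of all genes tested) and above for 2, RRM2 and TK1 (31.1%). The median log2 difference was -0.34 for the 35 genes and -0.02 for all genes tested. The largest differences were those of PRPS2 (-0.82, SE 0.07, adjusted p = 1.7e-04), TYMS (-0.79, SE 0.07, adjusted p = 1.5e-04), NME1 (-0.71, SE 0.12, adjusted p = 0.0024), DUT (-0.66, SE 0.09, adjusted p = 0.001), ATIC (-0.65, SE 0.06, adjusted p = 1.8e-04) and UCK2 (-0.64, SE 0.10, adjusted p = 0.0014). The count depended on the libraries and the fit. Without any 1 sh#16 or sh#87 library it was 9 to 11, against 614 to 848 lower of 16503 to 16554 genes tested. With a replicate block it was 12, against 853 of 16532. Without any 1 NT library it was 15 to 23, against 1149 to 2770 of 16452 to 16466.

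MECOM itself was lower with sh#87 than with sh#16 by 0.43 on the log2 scale (SE 0.09, adjusted p = 0.0066), a call lost in 7 of 9 fits with 1 library left out (highest adjusted p 0.0299). MYC, a known regulator of nucleotide synthesis genes, had 299, 366 and 444 CPM in NT, 256, 267 and 256 with sh#16 and 111, 93.1 and 98.4 with sh#87. It was 2.57-fold lower with sh#87 than with sh#16 (log2 difference -1.36, SE 0.13, adjusted p = 2.4e-04). Against NT, MYC fell by 0.51 with sh#16 (SE 0.13, edgeR adjusted p = 0.0066), a call lost in 6 of 9 fits with 1 library left out. MYC fell by 1.87 with sh#87 (SE 0.14, adjusted p = 1.9e-06) and was not called with both shRNAs as 1 group (adjusted p = 0.026). Whether either has a part in the difference between the shRNAs was not tested, and shRNA, vector preparation and library group cannot be told apart.

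Genes of the S phase and mitosis, 18 of them, were measured beside the nucleotide genes. With both shRNAs 4 rose and 5 fell, against 30.1% higher and 29.7% lower among all genes tested, with a median log2 fold change of -0.09. Their summed level was 3384 to 3726 CPM in NT, 3515 to 3533 with sh#16 and 2792 to 2922 with sh#87, and 9 were lower and 1 higher with sh#87 than with sh#16, against 9.42% and 8.29% of all genes. AURKB (1.11, SE 0.17), CDC6 (0.88, SE 0.09) and BIRC5 (0.84, SE 0.21) rose on the log2 scale, while MCM6 (-0.86, SE 0.12) and MCM5 (-0.74, SE 0.10) fell. Their part in the levels of TK1, RRM2 or TYMS was not tested.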

How the data were processed

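The authors deposited 1 table of estimated counts per gene for all 9 libraries, without normalisation. Its header points to salmon output, whereas the methods name STAR gene counts on GRCh38 with an ENSEMBL annotation. The counting tool is therefore unsettled, and use of strand is not stated. Header names stand 1 column left of the values and were assigned to the 9 columns in order. All values were whole numbers. In 1 label field the sh#87 libraries carry another shRNA number, and their titles decided the group.

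Counts were fitted with edgeR 4.0.16 in R 4.3.3, with TMM normalisation, filterByExpr and the quasi-likelihood test, and p-values were adjusted by Benjamini-Hochberg over all 16312 genes tested. A gene was said to rise or fall if its adjusted p was 0.01 or less, and genes that also passed a log2 fold change of 2 in either direction were counted apart. The comparison of both shRNAs with NT was fitted on 2 groups, and the others on 3. Gene pairs were compared by log2 ratio of counts (pseudocount 0.5) with an exact permutation test, at an adjusted p of 0.05 or less. The steps were tested on simulated data. With both shRNAs against NT, 61 of 97 genes changed by an absolute log2 fold change of 1 were called in the right direction. At 2 it was 91 of 95, and 2 of 15727 unchanged genes were called. All groups had the same spread in the simulation, unlike the real libraries. DESeq2 1.42.0 and limma 3.58.1 were alternatives, beside other normalisations, filters, thresholds, a replicate block and each library left out in turn. Depth was 17096170 to 43502389 counts per library. Floors of 3 counts cover counting error only.

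Promoter windows came from RefSeq (GRCh38.p14), and transcript lengths from 1 GENCODE transcript per gene. All 35 genes are named. Levels by library were given for genes past a log2 fold change of 2 against NT, the 10 largest called changes, the genes of changed pairs, the 6 largest called differences between the shRNAs and the 3 smallest changes. Of other lists the 5 largest called changes were named, except for an item that is not reported here. The genes and lists were chosen with earlier results of these data known.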

Additional observations from a re-analysis of the deposited data

Results flagged for a closer look

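For 21 of the 35 genes the change differed between the shRNAs, by edgeR's test of sh#87 against sh#16 (adjusted p of at most 0.01), and each was lower with sh#87. On the log2 scale the differences were -0.82 for PRPS2, -0.79 for TYMS, -0.71 for NME1, -0.66 for DUT, -0.65 for ATIC and -0.64 for UCK2. ADSS2 and CTPS2 differed by -0.60 each, SAMHD1 by -0.59, RRM1 by -0.57 and HPRT1 by -0.54. UMPS differed by -0.46, GMPS by -0.45, PRPS1 and PAICS by -0.43 each and GART by -0.42. The smallest were NME2 and MTHFD1 at -0.34 each, ADSL and IMPDH2 at -0.32 each and PPAT at -0.27. The call was lost in 7 of 9 fits with 1 library left out for UMPS, PAICS, NME2, ADSL, IMPDH2 and PPAT. It was lost in 6 fits for GART and PRPS1 and in 5 for CTPS2 and SAMHD1. For NME1 it was lost in 4, for MTHFD1 in 3 and for ADSS2 in 2. It held in every such fit for PRPS2, TYMS, DUT, ATIC, UCK2, RRM1, HPRT1 and GMPS. SAMHD1 is the only gene among the 21 that rose with both shRNAs, and DUT and IMPDH2 rose with sh#16 alone.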

How the results depend on the processing

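Of 3059 recomputed values, 2805 kept their direction and their side of the threshold. The genes lower with both shRNAs numbered 15 without each library in turn, and the genes higher 4 to 9. Of all genes tested, 4098 to 4932 were lower and 3779 to 4793 higher in these fits. A log2 fold change of 1 in place of 2 was passed by 15 genes with both shRNAs, 10 with sh#16 and 18 with sh#87, against 38.2%, 34% and 43.8% of all genes tested. The 21 genes lower with sh#87 than with sh#16 became 9 to 23 when a library was left out. Of all genes tested, 614 to 2770 were lower in those fits. With a replicate block the 21 became 12, against 853 of all genes tested. The replicate numbers did not pair the libraries (correlations of deviations between -0.14 and 0.083). The 6 changed gene pairs became 0 to 6 when a library was left out and 0 with a replicate block in the permutation, since fewer arrangements raise the smallest adjusted p above 0.05. Upper-quartile normalisation moved the median of all genes for both shRNAs from 0.05 to 0.16 on the log2 scale. With 3 libraries a group and a wide NT group, small changes of genes such as CAD and PFAS could not be resolved, and the larger one of APRT was not called.

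Values that changed sign all belonged to differences that were not called, and the cause was not tested. Under upper-quartile normalisation the log2 fold change of PFAS was 0.047 for both shRNAs, 0.046 for sh#16, 0.047 for sh#87 and 0.0017 between the shRNAs. PPAT (both) was 0.00018, ADSL 0.012 and PRPS2 0.019 with sh#16, and CAD 0.0052 with sh#87. PPAT with sh#16 was -0.0019 with RLE and -0.0015 with DESeq2. With a library left out, CAD ranged from -0.39 to 0.24 (both), -0.41 to 0.22 (sh#16) and -0.37 to 0.25 (sh#87), and PFAS from -0.30 to 0.21 in each. The lowest values came without NT library 1 and the highest without NT library 3. For sh#16, PPAT ranged from -0.034 to 0.040, PRPS1 from -0.029 to 0.070 and UMPS from -0.010 to 0.15, with PRPS1 at -0.0020 without NT library 2 and -0.0048 without sh#16 library 3. SHMT1 between the shRNAs ranged from -0.037 to 0.031, and the IMPDH1 to IMPDH2 log2 ratio from -0.073 to 0.26.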

Other observations

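Other genes of nucleotide and folate metabolism, 59 of 73 listed being in the table, were described the same way. With both shRNAs 22 fell and 6 rose, against 29.7% lower and 30.1% higher among all genes tested, and the median log2 fold change was -0.33. AMPD3, ADA and CMPK1 fell and FTCD rose, all among the 5 largest called changes. AMPD3, an AMP deaminase, had 46.9, 43.2 and 37.2 CPM in NT, 15.1 to 16.5 with sh#16 and 7.28 to 8.44 with sh#87, and fell by 1.86 (SE 0.27, edgeR adjusted p = 1.5e-04). ADA, the adenosine deaminase, had 25.2, 32.7 and 45.5 CPM in NT, 11.8 to 12.6 with sh#16 and 7.65 to 9.35 with sh#87, and fell by 1.75 (SE 0.21, adjusted p = 3.99e-05). CMPK1, which phosphorylates UMP and CMP, had 153, 122 and 90.9 CPM in NT, 41.6 to 48.0 with sh#16 and 29.0 to 30.1 with sh#87, and fell by 1.71 (SE 0.20, adjusted p = 3.29e-05).

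FTCD, a folate enzyme of histidine breakdown best known from liver, had 0, 0 and 1 counts in the NT libraries, 17 to 45 with sh#16 and 131 to 166 with sh#87. MTHFD2, the mitochondrial partner of MTHFD1L, had 434, 415 and 458 CPM in NT and fell by 0.50 (SE 0.08, adjusted p = 2.3e-04). MTHFD2 was chosen after its values were seen. With sh#87 against sh#16, 14 of the 59 genes were lower and 4 higher, against 9.42% and 8.29% of all genes tested.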
